A study of Saccharomyces cerevisiae with 30 samples.

Results

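The CUP1 locus of Saccharomyces cerevisiae comprised 4 neighboring genes here, CUP1-1 (YHR053C), YHR054C, CUP1-2 (YHR055C) and RSC30 (YHR056C), out of 7126 features in the auxin and diazaborine (DZA) tables and 6777 in the diamide files. They were chosen by gene identifier around YHR054C, the feature with the largest rise after Las1 depletion and at 15 min of DZA. YHR054C is therefore described, not tested, in those 2 contrasts. The other genes are given there in the same way. Of the 4 genes, 2 had reads, YHR054C and RSC30, and both CUP1 genes were listed at 0 in all 30 samples.

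The CUP1 genes encode metallothioneins, small cysteine-rich proteins that bind copper and protect the cell from it. They lie in a tandem repeat whose copy number differs between strains, so that a laboratory strain can carry more units than the reference genome shows. Their transcription is known to be driven by the copper sensor Cup2 (Ace1) and by heat-shock factor 1 (Hsf1). RSC30 encodes a zinc cluster protein of the RSC chromatin remodeling complex, and YHR054C is annotated as a truncated partial duplicate of RSC30 with no known function.

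The study measured rRNA-depleted total RNA from BY4741 derivatives grown in YPD, to follow the response of yeast to disrupted ribosome assembly. Depletion used strains in which LAS1, RAT1, RRP44 or RRP17 carried a C-terminal 3xV5-IAA7 degron (AID) with a KanMX6 marker. These factors process ribosomal RNA, Las1 as an endonuclease, Rat1 and Rrp17 as 5′-to-3′ exonucleases and Rrp44 as the catalytic exosome subunit. AID cells received 100 µM auxin for 20 min, against mock-treated cells of the same strain (2 libraries per group), and WT auxin against WT mock cells without a degron served as the control for auxin. All of these strains, WT included, expressed the adapter osTIR1 from a GPD1 promoter at the deleted leu locus and carried RPB3-3xFLAG. BY4741 without these tags received 15 µg/ml DZA, an inhibitor of the ribosome maturation ATPase Drg1, for 15 or 45 min, against 0.1% DMSO for the same time (2 libraries per group). A BY4741 strain with RPB3-3xFLAG::natMX6 received 1.5 mM diamide, a thiol oxidant, for 15 min, against the same strain before diamide at 0 min (1 library each).

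The auxin and DZA libraries held between 15014154 and 99585064 reads on features, and the diamide libraries 5045070 at 15 min and 4613828 at 0 min. In the RRP17-AID table, mock A and mock B were identical for all 7126 features and were counted as 1 library. Per the labels, replicates were grown on separate days. The study's methods say so for the auxin duplicates, which came from individual isolates of each strain. The p-values measure the spread between these libraries. Degrons act on the protein, so transcript levels gave no check of the depletions. As a check of the strain, URA3 had 0 reads throughout and MET15 at most 0.037 RPM (reads on a gene per 1000000 reads on all features of that library), and LEU2 reached at most 6.32 RPM. HIS3 lay between 16.3 and 71.6 RPM.

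The sequence of the locus set which reads could be assigned to each gene. All 4 genes lie on the minus strand of chromosome VIII (R64), CUP1-1 at chrVIII:212535-212720, YHR054C at chrVIII:213185-214249, CUP1-2 at chrVIII:214533-214718 and RSC30 at chrVIII:215183-217834. The 1988 bases of chrVIII:212266-214253 were identical to the 1988 bases of chrVIII:214264-216251, and only 10 bases, chrVIII:214254-214263, separated the copies. All 1065 bases of YHR054C were identical to the last 1065 coding bases of RSC30, and all 186 bases of CUP1-1 to those of CUP1-2. RSC30 had 1583 of its 2652 bases outside the repeat.

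The upstream edge of YHR054C is the only place where a read on this gene can be told from RSC30, and it is shown with the matching place inside RSC30. Both are read 5′ to 3′ on the minus strand, 30 bases each, with the bases outside the identical copies in capitals.
YHR054C edge, chrVIII:214244-214273: taaaaaaaaaAAAAAAAGCTattcatggta
RSC30, chrVIII:216242-216271: TCGCTTCTAGGTCAGTCTTCattcatggta
Both sequences end in the 4 bases before an ATG and the start of that reading frame. In YHR054C this ATG is the annotated start codon, and in RSC30 the same letters lie inside the coding sequence. A run of 16 A bases spans the boundary upstream of YHR054C. CUP1-2 ends 269 bases upstream of the separating bases.

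No stretch of 36, 50, 75 or 100 bases lying wholly inside YHR054C or touching either CUP1 gene was unique in the genome. A unique read on YHR054C had to cross its upstream edge, which was so for 31 of 1100 possible starts with 36-base reads, 45 of 1114 with 50-base reads and 95 of 1164 with 100-base reads. RSC30 had 1632 unique starts of 2701 with 50-base reads. The read length was not given in the sources used here. Across the genome, 104 of 6079 placed features had no unique 50-base start, and 93 of these had 0 reads in every auxin and DZA library. Of the 5975 features with a unique start, 99.4% had reads in at least 1 library. Reads with several equal places were thus left out for most features, although 11 features without a unique 50-base start did have reads. With 36-base starts 16 of 112 such features had reads. With 75-base starts this was 1 of 92, and with 100-base starts 1 of 86. Under such counting the zeros of CUP1-1 and CUP1-2 say nothing about the level of CUP1 RNA, and the reads on YHR054C come from the short stretch at its upstream edge.

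**Figure D1:**
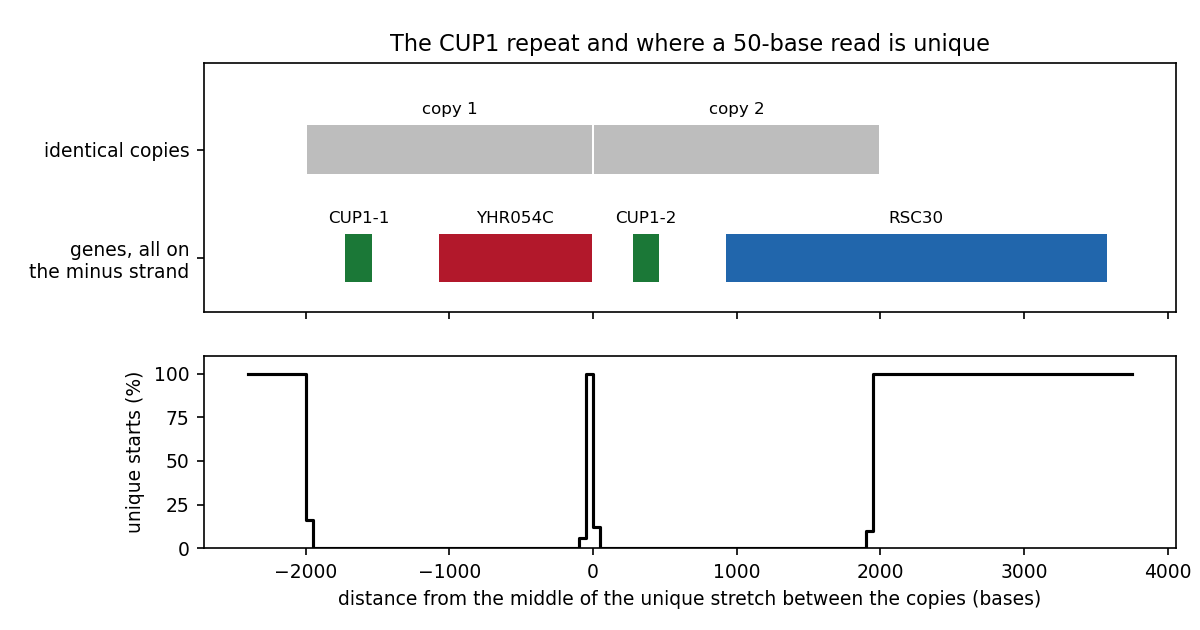
The CUP1 repeat by distance in bases from the middle of the 10 bases between its copies, with the identical copies and the 4 genes above and the percentage of 50-base read starts that are unique in the genome below. Unique starts fall to 0% across both copies except at the boundary next to YHR054C, and RSC30 reaches into unique sequence on the right.

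The promoters of the CUP1 genes were identical in all 300 bases compared (250 before to 50 after the start codon). One stretch is shown because it holds the only match to a unit of the heat shock element (TTC and GAA, or GAA and TTC, with any 2 bases between them, which reads the same on both strands) in these promoters. The capitals mark its fixed letters and the bases between them.
CUP1-1 at chrVIII:212931-212960 and CUP1-2 at chrVIII:214929-214958: gctggcatttcTTCTAGAAgcaaaaagagc
The stretch begins 240 bases before the start codon, and 22.3% of 6020 promoters of the same length held at least 1 such match. YHR054C and RSC30 had 0 matches to it. None of the 4 promoters held CGCGC or GCGCG, the core bound by Rsc3 and Rsc30 (10.6% of promoters), or the stress response element AGGGG or CCCCT (21.6%).

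After depletion of Rat1, a nuclear exonuclease that also acts in transcription termination, YHR054C rose while RSC30 stayed within the spread between replicates. YHR054C had 1398 and 398 reads in RAT1-AID auxin libraries, against 3 and 42 in RAT1-AID mock libraries. In RPM these were 19.7 and 10.2 with auxin and 0.101 and 0.56 in mock cells. Every auxin library lay above every mock library. The log2 fold change on log2(normalized count + 1) was 5.78 (SE 0.69, limma adjusted p = 0.00287, n = 2 each), the rank 10 of 6524 features by rise. In this comparison 16.7% of features passed the threshold, 10.7% as higher and 6.02% as lower. Without mock replicate A, which held the 3 reads, the log2 fold change was 4.69.

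RSC30 had 95.2 and 79.6 RPM in RAT1-AID auxin cells and 90.0 and 106 in RAT1-AID mock cells. The groups overlapped, and the log2 fold change of -0.13 (SE 0.14) did not pass the test (limma adjusted p = 0.571). The reads on YHR054C amounted to 20.7% and 12.8% of those on RSC30 with auxin, against 0.112% and 0.527% in mock cells.

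Depletion of the exosome subunit Rrp44, a 3′-to-5′ nuclease, gave the same contrast between the genes. YHR054C had 483 and 310 reads in RRP44-AID auxin libraries and 13 and 14 in RRP44-AID mock libraries, or 17.3 and 11.2 against 0.621 and 0.527 RPM. The groups did not overlap. The log2 fold change was 4.41 (SE 0.26, limma adjusted p = 0.000172, n = 2 each), with 4.59 and 4.24 in the same-letter pairs and the rank 5 of 6343 features by rise. Here 25.3% of features passed the threshold, 15.1% as higher. RSC30 had 111 and 117 RPM with auxin and 83.4 and 109 in mock cells, a log2 fold change of 0.16 (SE 0.13, limma adjusted p = 0.408). That difference was not past the threshold, although it was without mock replicate B (0.34, limma adjusted p = 0.00715).

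In WT cells, auxin itself left both genes within the replicate spread. YHR054C had 13 and 20 reads in WT auxin libraries, against 35 and 24 in WT mock libraries. In RPM these were 0.26 and 0.55 with auxin and 0.357 and 0.402 in mock cells, and the auxin values fell on either side of the mock values. The log2 fold change was 0.099 (SE 0.47, limma adjusted p = 1, n = 2 each), and that of RSC30 was -0.11 (SE 0.19, limma adjusted p = 1). With limma 0% of features passed the threshold in WT cells, 48 had an unadjusted p under 0.05, edgeR called 0 and DESeq2 called 2.

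The response of YHR054C differed between the degron strains and WT when the difference itself was tested. The auxin effect in RAT1-AID cells exceeded that in WT cells by 5.68 on the log2 scale (SE 0.95, 95% interval 3.52 to 7.84, limma interaction adjusted p = 0.00929). In this test 6.95% of features passed, 5.51% as higher in RAT1-AID cells. The effect in RRP44-AID cells exceeded that in WT cells by 4.32 (SE 0.52, 95% interval 3.10 to 5.53, limma interaction adjusted p = 0.00638), in a test that 5.66% of features passed, 4.67% as higher. RAT1-AID and RRP44-AID could not be told apart for this gene, with a difference of 1.37 (SE 0.89, 95% interval -0.67 to 3.41, limma interaction adjusted p = 0.453, 2.55% of features called). Without RAT1-AID auxin replicate A the first difference was 5.26 with an adjusted p of 0.0517, and without RRP44-AID auxin replicate A the second was 4.02 with an adjusted p of 0.0538. Over all 12 alternatives the adjusted p ranged between 0.00276 and 0.0517 for the first and between 0.00214 and 0.0538 for the second.

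Depletion of Las1, the endonuclease that opens the internal transcribed spacer between 5.8S and 25S rRNA, is one of the contrasts that chose YHR054C. YHR054C had 262 and 245 reads in LAS1-AID auxin libraries, against 5 and 11 in LAS1-AID mock libraries, or 13.5 and 16.3 against 0.232 and 0.515 RPM. Its log2 fold change was 5.04, and the next features, YDL114W and YOR214C, had 5.04 and 4.97, so that the first place rests on a difference far inside the spread of the pairs of YHR054C (5.46 and 4.63). The background in this table was 33.7% of features past the threshold, 16.5% as higher and 17.2% as lower. RSC30 had 117 and 132 RPM with auxin, against 109 and 109 in mock cells, but its log2 fold change on normalized counts was 0.0062. The RPM and the normalized counts thus differed in scale, since the size factors of the libraries do not follow their totals.

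At 15 min of DZA, the other contrast that chose YHR054C, the gene reached its highest level of the series. It had 1738 and 629 reads in WT DZA libraries, against 11 and 6 in WT DMSO libraries. In RPM these were 33.6 and 23.1 with DZA and 0.174 and 0.193 with DMSO. The log2 fold change was 6.88, with 7.25 and 6.52 in the pairs, and the next feature was YGR142W (BTN2), an Hsf1 target, with 4.91. The background was 4.93% of features past the threshold, 3.80% as higher and 1.13% as lower. RSC30 had 104 and 108 RPM with DZA and 92.0 and 88.4 with DMSO, and its log2 fold change on normalized counts was 0.029.

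**Figure D2:**
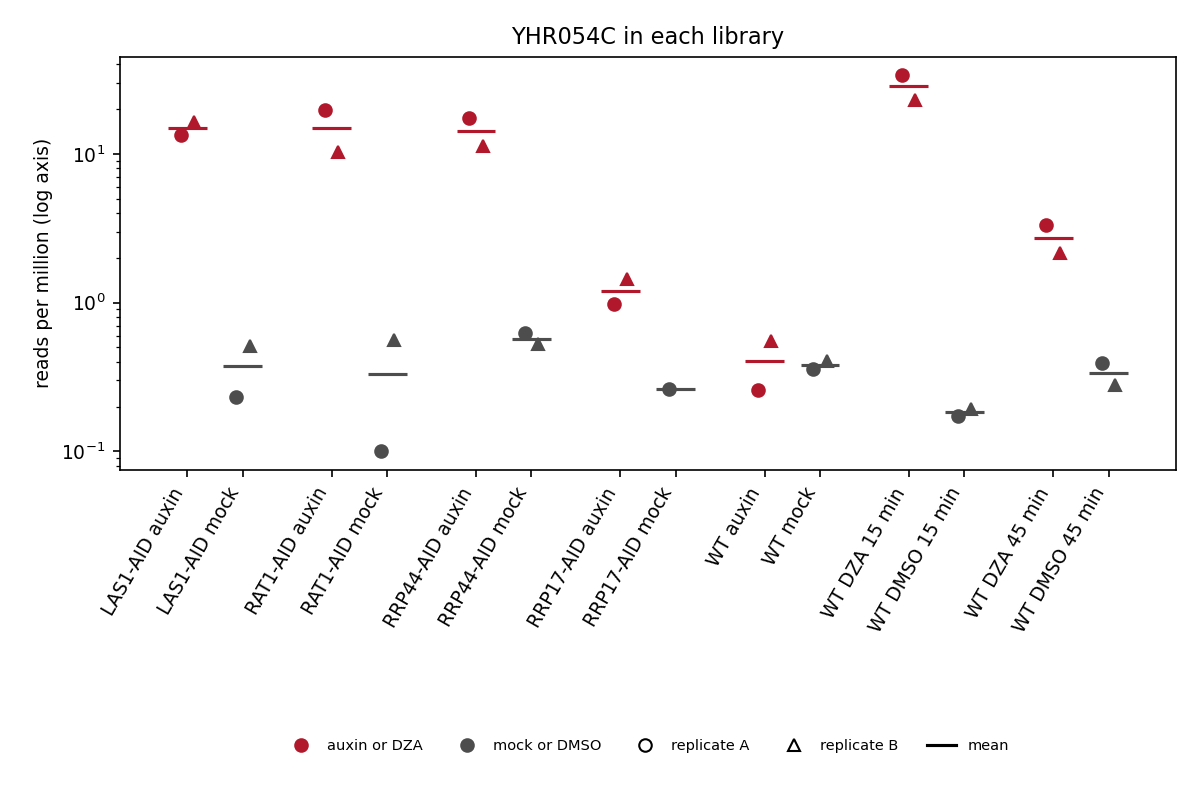
RPM for YHR054C in each auxin, mock, DZA and DMSO library on a log axis, with circles for replicate A, triangles for replicate B and lines for means. The LAS1-AID, RAT1-AID and RRP44-AID auxin libraries sit between 10.2 and 19.7 and the libraries at 15 min of DZA at 23.1 and 33.6, while no mock or DMSO library exceeds 0.621.

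At 45 min of DZA, a contrast the choice did not use, YHR054C was still higher than with DMSO, but by less. It had 280 and 74 reads in WT DZA libraries and 39 and 7 in WT DMSO libraries, or 3.31 and 2.15 against 0.392 and 0.28 RPM. The groups did not overlap, and the lower DZA library was still above both DMSO libraries. The log2 fold change was 2.65 (SE 0.33, limma adjusted p = 0.00455, n = 2 each), the rank 131 of 6476. At this time 47.4% of features passed the threshold, 23.7% in each direction, so that calls were common at this time. The level at 45 min, 2.73 ± 0.82 RPM (SD, n = 2), lay below that at 15 min, 28.4 ± 7.44 RPM (SD, n = 2), and the libraries of the times did not overlap. This comparison across tables was not tested.

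RSC30 was called lower at 45 min of DZA. Its normalized counts were 4476 and 4809 in WT DZA libraries, against 5978 and 6116 in WT DMSO libraries, with no overlap. The log2 fold change was -0.38 (SE 0.06, limma adjusted p = 0.00867, n = 2 each), against a background of 23.7% of features called lower. In RPM the values lay closer, 95.9 and 103 with DZA and 103 and 108 with DMSO, a log2 ratio of means of -0.087. The size of this fall thus depends on the scale, while its direction held under median centering and TMM scaling. RPM stood higher than normalized counts by 0.29 on the log2 scale in this comparison, which holds for every feature, and the median over all features was 0.28 in RPM and -0.012 in normalized counts. In the other tables this offset lay between -0.10 and 0.20.

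**Figure D3:**
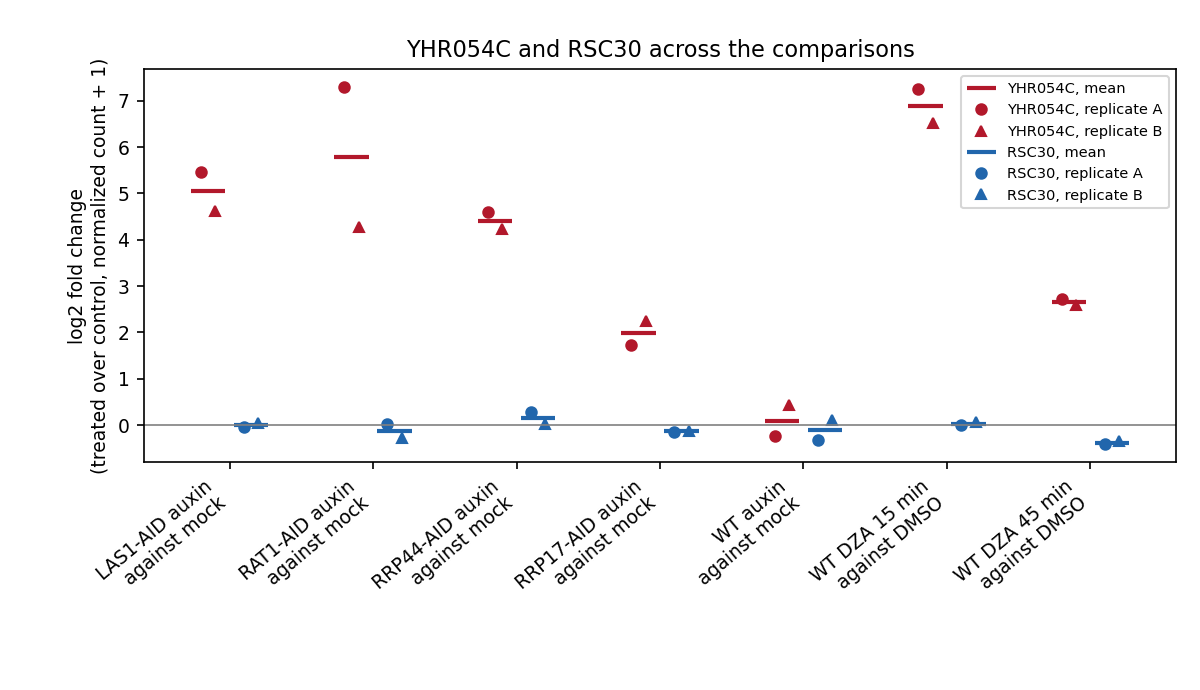
Log2 fold changes on log2(normalized count + 1) of YHR054C in red and RSC30 in blue for 7 comparisons, with lines for means, circles for replicate A and triangles for replicate B over the control of the same letter (RRP17-AID over its 1 mock library). Means of YHR054C lie between 1.99 and 6.88 in all comparisons but WT auxin, means of RSC30 between -0.38 and 0.16, and the RAT1-AID point of replicate A rests on 3 mock reads.

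In RRP17-AID cells the rise of YHR054C was smaller and could not be tested. Rrp17 is a 5′-to-3′ exonuclease of the large ribosomal subunit pathway. According to the study, the tag itself made Rrp17 a partial loss of function, with reduced growth and pre-rRNA building up without auxin. The mock library thus came from cells that were already affected, and whether this bears on the smaller rise was not tested. YHR054C had 27 and 76 reads in auxin libraries, against 7 in the 1 mock library, or 0.978 and 1.43 against 0.263 RPM. Both auxin libraries lay above the mock library, with log2 ratios of 1.73 and 2.25. The mean of 1.99 was rank 7 of 6103 features, and 0.852% of features rose at least 2-fold. RSC30 had a log2 ratio of -0.13, with 102 and 105 RPM with auxin and 109 in mock cells.

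After diamide the locus gave almost no reads outside RSC30. YHR054C had 1 read (0.108 RPKM) at 15 min of diamide and 0 reads at 0 min, and both CUP1 genes were listed at 0. A difference of this size cannot be told from counting error. RSC30 had 11.8 RPKM (273 reads) at 15 min of diamide, against 12.4 RPKM (240 reads) at 0 min. YHR054C thus had 1 read beside 273 on RSC30 after diamide. At 15 min of DZA its reads were 32.4% and 21.4% of those on RSC30, a comparison that was not tested. For RSC30 the log2 ratio of 15 min over 0 min of diamide was -0.069, with a 95% interval of -0.32 to 0.18 that covers counting error only. At least 2-fold changes in either direction were seen in 17.4% of 5760 features between these 2 libraries, which have no replicates and were made with another library protocol than the rest.

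Set side by side across tables, which the authors normalized separately, the RPM of YHR054C gave an order of groups that was not tested. DZA at 15 min came first with 28.4 RPM and did not overlap the next group. RAT1-AID, LAS1-AID and RRP44-AID auxin followed with 14.9 ± 6.70, 14.9 ± 2.0 and 14.3 ± 4.31 RPM (SD, n = 2 each), and these neighbors overlapped each other. DZA at 45 min (2.73) and RRP17-AID auxin (1.21) stood apart from the groups above and below them. The mock and DMSO groups and WT auxin all lay at or below 0.574 RPM, and neighbors in the order overlapped, except that RRP17-AID mock (0.263) and DMSO at 15 min (0.183) did not. In bulk RNA a change in few cells and a smaller change in all cells cannot be told apart.

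RSC30 levels formed no such order. The group means lay between 87.4 RPM in RAT1-AID auxin cells and 125 RPM in LAS1-AID auxin cells, less than 2-fold apart, and most neighbors in the order overlapped. The single library with the least was WT auxin replicate A with 70.1 RPM, against 109 in WT auxin replicate B.

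**Figure D4:**
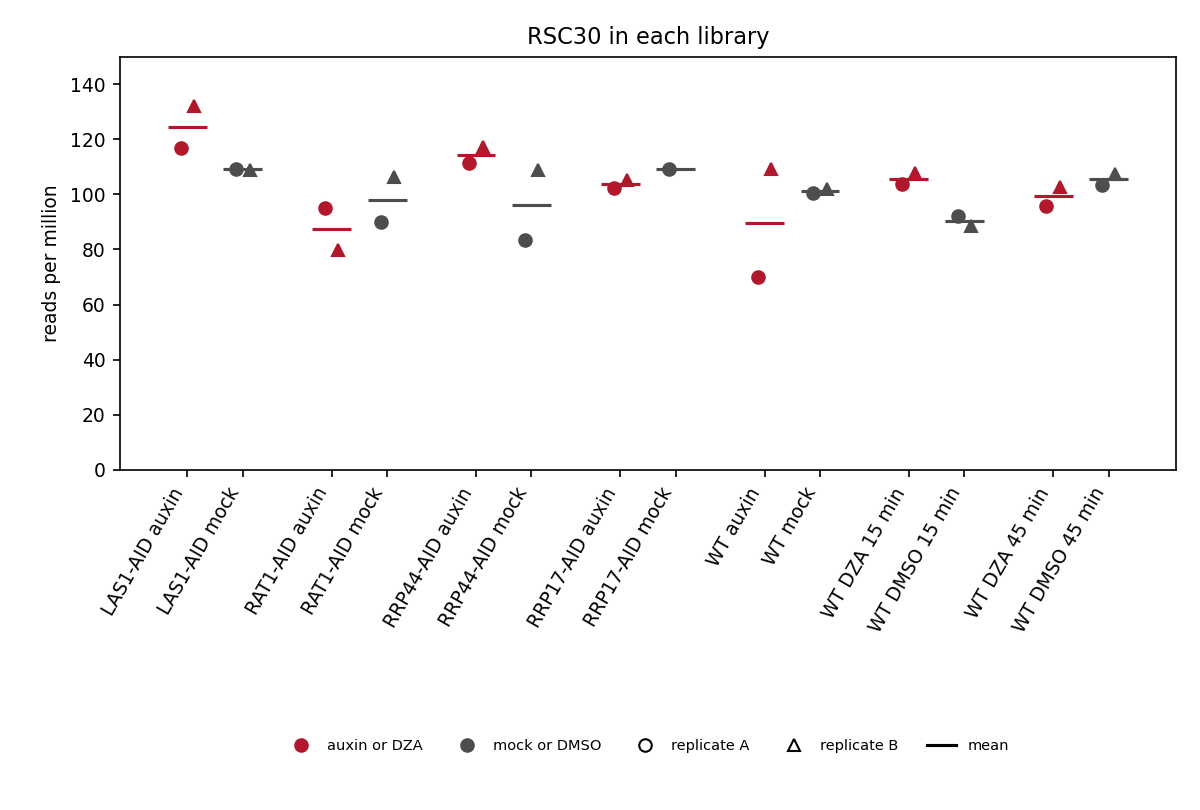
RPM for RSC30 in each auxin, mock, DZA and DMSO library on a linear axis, with circles for replicate A, triangles for replicate B and lines for means. All libraries lie between 70.1 and 132, in contrast to YHR054C in the same libraries.

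Reads per unique start set the genes on 1 scale, with starts counted in the reference genome. The number of repeat units in these strains was not known, and more units would hold more such edges. The size of the ratio to RSC30 thus also depends on that number. With 50-base starts, YHR054C had 9.77 ± 2.83 times the density of RSC30 at 15 min of DZA, against 0.074 ± 0.0075 times with DMSO (SD, n = 2 each). The ratio was 6.07 ± 2.01 in RAT1-AID auxin cells, against 0.116 ± 0.106 in mock cells, and 4.56 ± 1.53 in RRP44-AID auxin cells, against 0.223 ± 0.067 in mock cells. LAS1-AID auxin cells had 4.33 ± 0.20, against 0.124 ± 0.067 in mock cells. Of these 4 treated groups, LAS1-AID auxin and DZA at 15 min belong to the contrasts that chose YHR054C. With 100-base starts the lowest value among their libraries was 1.70. Per reference start, the stretch was thus covered more densely than RSC30 in these 8 treated libraries, and less densely in their controls. This held at read lengths of 36, 50, 75 and 100 bases. At 45 min of DZA the ratio was 1.01 ± 0.35, against 0.116 ± 0.030 with DMSO (SD, n = 2 each, 50-base starts), and it was 0.657 with 75-base and 0.491 with 100-base starts. RRP17-AID auxin cells had 0.42 ± 0.10 (SD, n = 2), against 0.087 in the 1 mock library, and so stayed below the density of RSC30.

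No gene around the repeat was called higher. Among 11 neighboring features named YHR050 to YHR060, 9 could be tested and the other 2, both antisense to CUP1 and inside the repeat, had 0 reads. This held for all 9 in each of the 6 tables with a test. Of all features, WT auxin had 0% called higher, and DZA 3.80% at 15 min and 23.7% at 45 min. Depletion of Las1 gave 16.5%, that of Rrp44 15.1% and that of Rat1 10.7%. Such shares leave room for few calls among 9 genes, and whether 0 falls below them was not tested. At 45 min of DZA 3 were called lower, against 23.7% of all features, and after Las1 depletion 1, against 17.2%. The gene called after Las1 depletion was VMA22, an assembly factor of the vacuolar ATPase (-0.49, SE 0.10, limma adjusted p = 0.00651). CIC1, which encodes a ribosome assembly protein and is the nearest gene on the CUP1-1 side, had log2 fold changes of -0.08 in RAT1-AID and -0.25 in RRP44-AID cells, neither past the test, and was called lower at 45 min of DZA (-0.25, SE 0.06, limma adjusted p = 0.0248). The direction for CIC1 at 45 min turns with the scale, since it had 180.1 and 173.5 RPM with DZA, against 176.4 and 167.5 with DMSO. At 15 min of DZA CIC1 stood higher, at 240 and 229 RPM against 144 and 135 with DMSO, without overlap. Its log2 fold change there was 0.55 (SE 0.12), which did not pass the test (limma adjusted p = 0.0731). In LAS1-AID and WT cells CIC1 had -0.054 and 0.14, neither past the test. The largest fall at 45 min was that of COX6, a subunit of cytochrome c oxidase (-0.89, SE 0.24, limma adjusted p = 0.0377).

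CPR2, a peptidyl-prolyl isomerase gene beyond RSC30, did not pass in any table, with 0.19 in RAT1-AID and -0.15 in RRP44-AID cells. YHR050W-A, picked out after its values were seen, was the highest neighbor in 4 tables without being called. Its log2 fold change was 2.48 (SE 1.46) at 15 min of DZA and 0.84 in LAS1-AID cells. It was 0.68 after Rat1 and 0.98 after Rrp44 depletion, -0.11 at 45 min of DZA and -0.39 in WT cells. After diamide CIC1 had 11.7 RPKM at 15 min, against 48.9 RPKM at 0 min, and CPR2 29.1 RPKM, against 27.3 RPKM. YHR056W-A, on the strand opposite to RSC30, shares 609 bases with it and never exceeded 44 reads.

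**Figure D5:**
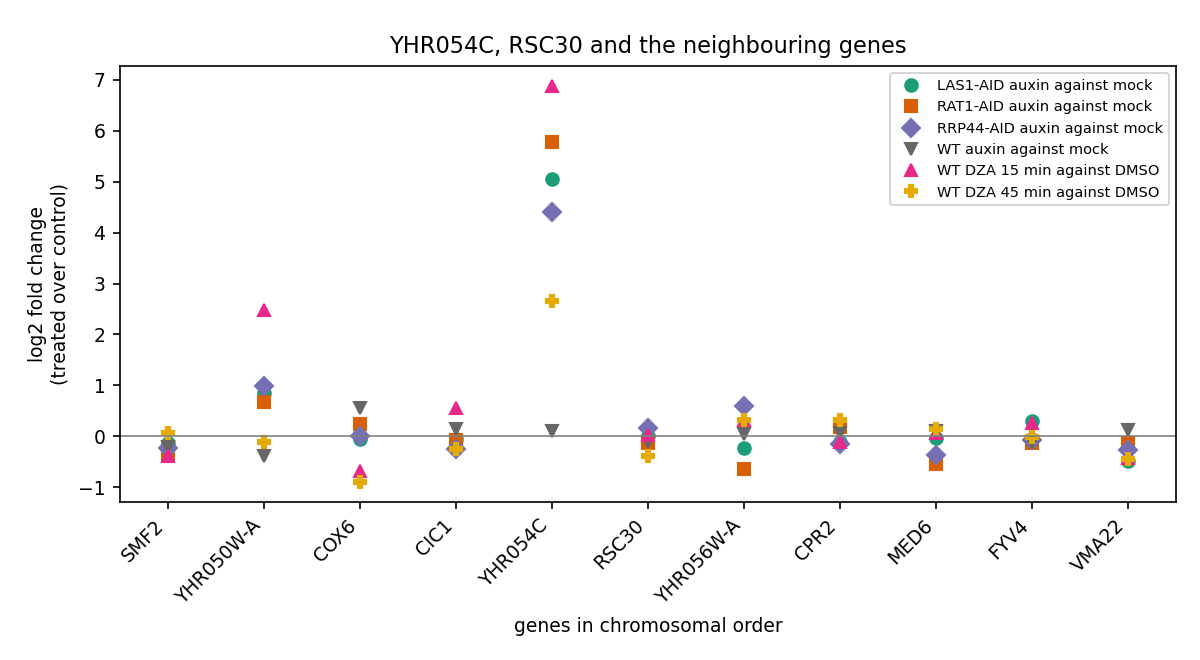
Log2 fold changes of YHR054C, RSC30 and the neighboring genes in chromosomal order for 6 comparisons, 1 marker each, leaving out the 2 CUP1 genes and 2 antisense features that had no reads. YHR054C stands between 2.65 and 6.88 outside WT auxin, and of its neighbors YHR050W-A goes highest, with 2.48 at 15 min of DZA.

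Calls among the 13 genes of copper homeostasis lay near the background in each table. In RAT1-AID cells 2 were called higher and 0 lower (15.4%, against 16.7% of all features), with a median log2 fold change of -0.17 against -0.0098 over all features. In RRP44-AID cells 2 were higher and 1 lower (23.1%, against 25.3%), and in LAS1-AID cells 2 higher and 2 lower (30.8%, against 33.7%). In WT auxin cells 0 passed. DZA gave 1 higher and 0 lower at 15 min (7.69%, against 4.93%), and 2 higher and 4 lower at 45 min (46.2%, against 47.4%).

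CTR2, which encodes a copper transporter of the vacuole, had the largest called rise of the list in each of the 5 comparisons with a gene called higher. It had 382 and 229 RPM in RAT1-AID auxin cells, against 46.6 and 54.3 in mock cells, with no overlap. Its log2 fold change was 2.59 (SE 0.22, limma adjusted p = 0.000815) in RAT1-AID cells. RRP44-AID cells had 2.21 (SE 0.09, limma adjusted p = 0.000115) and LAS1-AID cells 2.01 (SE 0.08, limma adjusted p = 3.36e-06). At 15 min of DZA it was 2.08 (SE 0.17, limma adjusted p = 0.015), and 1.90 at 45 min (SE 0.16, limma adjusted p = 0.00157).

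Falls in the copper list were smaller. CCS1, the copper chaperone for superoxide dismutase, was called lower in RRP44-AID cells (-0.56, SE 0.09, limma adjusted p = 0.00627). FRE1, a plasma membrane reductase for copper and iron, was called lower in LAS1-AID cells (-0.69) and at 45 min of DZA (-0.94, SE 0.15, limma adjusted p = 0.00827). After diamide 12 of the 13 genes reached 1 RPKM in at least 1 library, and 2 of them were at least 2-fold higher. Among all features with a mean of at least 1 RPKM, 482 of 5760 rose that far. The median log2 ratio of the 12 genes was 0.61, against -0.077 over all features that reached 1 RPKM in at least 1 library. The highest value was that of SOD1, superoxide dismutase (1.27). With 1 library per group these differences were not tested.

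Of the 16 other RSC subunit genes, RAT1-AID and RRP44-AID cells each had 0 called higher and 1 lower (6.25%, against 16.7% and 25.3% of all features), LDB7 (-0.99, SE 0.17, limma adjusted p = 0.011) and NPL6 (-0.33, SE 0.08, limma adjusted p = 0.0325), both accessory subunits. LAS1-AID cells had 2 higher and 1 lower (18.8%, against 33.7%), and 15 min of DZA had 0, against 4.93%. At 45 min of DZA 3 were higher and 5 lower (8 of 16, against 47.4%), led by HTL1 (1.01, SE 0.17) and RSC2 (-0.40, SE 0.05). RSC3, the closest relative of RSC30, did not pass in any table, with log2 fold changes of 0.098 in RAT1-AID, 0.11 in RRP44-AID and -0.26 at 45 min of DZA (limma adjusted p = 0.0569). In RPM RSC3 had 169 and 186 with DZA against 163 and 183 with DMSO, so that the sign depends on the scale.

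The features most like YHR054C across libraries were looked for among 6019 features with a mean of at least 10 normalized counts in every table, over 27 libraries and relative to the controls of each table. SSP2, a sporulation gene, had Pearson r = 0.985, SPO21, a meiotic spindle pole body gene, 0.976, and CTA1, peroxisomal catalase, 0.975. YOR102W (0.973) and YGR146C-A (0.970) followed. These values describe a shared pattern of libraries, which include the contrasts that chose YHR054C, and carry no test. By Spearman's rho 2 of these 5 stayed among the first 5. Mean log2 changes of SPO21 with auxin were 3.00 in LAS1-AID cells, 3.81 after Rat1 and 2.69 after Rrp44 depletion, 0.96 in RRP17-AID cells and -0.14 in WT cells. DZA gave 3.42 at 15 min and 1.26 at 45 min. Outside WT auxin each of these was smaller than the change of YHR054C in the same table. RSC30, which shares its 3′ end with YHR054C, had r = 0.028.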

How the data were processed

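RNA-seq was analysed for 30 samples. Per the labels and the study's methods, the authors' pipeline was adapter trimming (cutadapt), quality filtering (PRINSEQ), alignment to R64 (TopHat2 2.1.0) and counting (HTSeq). Read length, strand setting and the treatment of multiply mapped reads were not given in the sources used here. For auxin and DZA the authors deposited a normalized signal, the count divided by a DESeq2 size factor, and for diamide RPKM. Deposited columns of the authors' own DESeq2 comparisons (fold changes, p-values) were not used, and 0 other sample columns were left out. All signal values were whole multiples of 1 step per library (tolerance 0.001 reads), so whole reads were recovered as value over step (in RRP44-AID mock B the size factor was 1.01, so near 1 that its reads are less certain than the others), and the RPKM gave reads with each gene's length.

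Values were tested as log2(normalized count + 1) in limma 3.58.1 under R 4.3.3 (lmFit, eBayes with trend), two-sided, each table alone, for features with a mean of at least 10, and calls had a Benjamini-Hochberg adjusted p under 0.05 over all features. It was tested on simulated data. Interactions joined 2 tables. The diamide ratio used a pseudocount of 0.1 RPKM. Shares past 2-fold used features with a mean of at least 1 RPKM. The gene lists and their background median used features that reached 1 RPKM in at least 1 of the libraries. Alternatives were other pseudocounts, filters and scalings, no trend, a replicate block, edgeR 4.0.16, DESeq2 1.42.0 and each library left out. Unique starts came from exact matches in the R64 RefSeq genome (Python 3.11.15, numpy 2.4.6, pandas 2.3.3), which ignore mismatches.

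Members and lists were chosen with earlier results of these data known. Named are the members, in each list the called gene with the largest rise and fall per comparison, RSC3, CIC1, CPR2 and the 5 features most like YHR054C. Same-letter replicates were paired only in the pair values and the replicate block, since the labels say that replicates were grown on separate days. No other fit held a replicate term. Deviations from group means correlated at 0.184 (LAS1-AID), 0.107 (RAT1-AID), 0.246 (RRP44-AID), 0.449 (WT), and with DZA at -0.084 (15 min) and 0.577 (45 min).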

Additional observations from a re-analysis of the deposited data

Results flagged for a closer look

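The auxin response of YHR054C differed between groups by a test of the difference itself. It was 5.68 larger on the log2 scale in RAT1-AID than in WT cells and 4.32 larger in RRP44-AID than in WT cells (limma interaction adjusted p = 0.00929 and 0.00638). In each degron strain both auxin libraries lay above both mock libraries (2 of 2 pairs higher), while in WT cells 1 pair was higher and 1 lower. Both differences used the same WT libraries.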

How the results depend on the processing

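YHR054C kept its direction and its call in RAT1-AID, RRP44-AID and at 45 min of DZA under all alternatives that kept the gene. At 45 min of DZA and in WT it lay under the mean of at least 100, so that filter gave no result for YHR054C there. With 1 library left out its log2 fold change ranged between 4.69 and 6.87 in RAT1-AID, 4.12 and 4.71 in RRP44-AID, 2.35 and 2.96 at 45 min of DZA, 4.55 and 5.54 in LAS1-AID, 6.61 and 7.15 at 15 min of DZA, and 1.73 and 2.25 in RRP17-AID. In WT it ranged between -0.35 and 0.54, reversing without auxin B (-0.35) and without mock A (-0.0040). The interactions ranged between 4.59 and 6.77 (RAT1-AID minus WT), 3.87 and 4.76 (RRP44-AID minus WT) and 0.28 and 2.46 (RAT1-AID minus RRP44-AID), and the first and the second each lost the call without auxin A of the degron strain. A pseudocount of 10 lowered YHR054C to 3.99 in LAS1-AID, 5.89 at 15 min of DZA and 1.35 in RRP17-AID, since it outweighs the low control values. RSC30 reversed in RRP44-AID without mock A (-0.028) and in WT without auxin A (0.14), and passed the threshold in RRP44-AID without mock B (0.34).

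The count of features called moved more. It was 704 in place of 1091 in RAT1-AID and 158 in place of 311 at 15 min of DZA with a mean of at least 100, where fewer features were tested. DESeq2 called 952 at 15 min of DZA and 2 in WT, in place of 311 and 0. With the replicate block, which pairs equal letters, 1696 were called in RAT1-AID, 8 in WT, 4831 in place of 3069 at 45 min of DZA and 3101 in place of 2058 in LAS1-AID, and the block changed no call of YHR054C or RSC30. With 1 library left out the counts ranged between 701 and 1058 (RAT1-AID), 656 and 2884 (RRP44-AID, 1604 in full), 0 and 16 (WT), 2184 and 2788 (45 min), 1189 and 3031 (LAS1-AID) and 0 and 2791 (15 min). The cause was not tested where none is given.

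Depth and position limit the locus. Mock and DMSO libraries held between 3 and 42 reads on YHR054C, so fold changes rest on few control reads, and intervals from reads cover counting error only. Reads inside the repeat match both copies equally, so the level of CUP1 RNA and of YHR054C downstream of its edge was not measured. The number of repeat units in each strain was not known either.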
